A study of Mus musculus with 10 samples.

Results

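The actomyosin cytoskeleton and focal adhesion genes were 39 genes chosen by symbol from both tables of RNA-seq values: the serum response factor gene Srf, the actins, the nonmuscle myosins, the tropomyosins, actin-binding proteins and proteins of focal adhesions. All 39 were listed in both tables, among 18380 genes listed in either. The cells were ASZ001, a mouse basal cell carcinoma (BCC) line selected for growth that resists Smoothened inhibitors. They are 1 cultured line, so every value stands on a single tumor background. All libraries came from cells kept for 24 h in low-serum medium. One experiment set 3 libraries treated with 10 µM SB431542, which blocks the TGFß receptor kinase ALK5, against 3 treated with DMSO alone. The other set 2 libraries treated with 20 µM T-5224, which blocks the transcription factor AP-1, against 2 of their own DMSO libraries. The study asked which transcripts depend on each of these pathways in BCC cells that resist Smoothened inhibitors.

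Actin filaments are built from actin monomers, and nonmuscle myosin II pulls on them to make contractile bundles. Tropomyosins and calponins coat the filaments, alpha-actinins and filamin crosslink them, and vinculin, talin, zyxin and paxillin tie their ends to integrins at focal adhesions. The actin monomer pool also controls transcription, because MRTF coactivators bound to monomeric actin stay out of the nucleus, and when released they drive many of these same genes through SRF at a DNA element called the CArG box.

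The motifs of SRF and AP-1 were looked for in the promoters of the members because the study concerns both. RefSeq promoter windows (GRCm38.p6, 250 bases before to 50 bases after each start) were found for 35 of the 39 members, in 42 windows, and not for Actb, Cttn, Pxn and Tagln. The CArG box (CC, 6 bases of A or T, then GG, which reads alike on both strands) was present in 8 of the 35 (22.9%). It was present in 488 of the 27025 genes with a RefSeq window (1.81%). Many actin genes are driven by SRF, so the choice of members was not neutral for this motif, and no test was made. The AP-1 motif, TGAGTCA or its reverse complement TGACTCA, was present in 5 of the 35 (14.3%), against 5.95% of the 27025 genes. No member had both motifs. The motifs and their flanks are printed for most of these genes. Of those printed, Actg1, Lima1 and Zyx changed by more than 2-fold with T-5224, and the others changed by less. The members past 2-fold with SB431542, Coro6 and Pdlim7, held neither motif in their windows. The motif is in capitals, and each sequence reads 5′ to 3′ on the strand of the gene.
Actg1 CArG box (chr11:120348566-120348595, minus strand): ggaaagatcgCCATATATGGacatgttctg
Lima1 CArG box (chr15:99820177-99820206, minus strand): ctcactttgtCCTTATAAGGctatcctgtt
Myl6 CArG box (chr10:128493040-128493069, minus strand): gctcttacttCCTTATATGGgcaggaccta
Vcl CArG box (chr14:20929161-20929190, plus strand): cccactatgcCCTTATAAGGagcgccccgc
Cnn2 CArG box (chr10:79988534-79988563, plus strand): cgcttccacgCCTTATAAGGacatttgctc
Srf CArG box, nearer the start (chr17:46556205-46556234, minus strand): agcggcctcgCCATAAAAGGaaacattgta
Srf CArG box, farther from the start (chr17:46556225-46556254, minus strand): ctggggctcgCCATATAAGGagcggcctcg
Fhl2 CArG box (chr1:43163973-43164002, minus strand): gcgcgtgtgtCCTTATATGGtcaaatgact
Zyx AP-1 motif (chr6:42349697-42349723, plus strand): gtgcggacagTGAGTCAgttctccagc
Cald1 AP-1 motif (chr6:34709237-34709263, plus strand): ttgatttctcTGAGTCAagcttataaa
Myl12a AP-1 motif (chr17:71002654-71002680, minus strand): acctagacagTGAGTCAccctagcttc
The Lima1, Vcl and Cnn2 boxes had the same 10 letters, and so did the Myl6 and Fhl2 boxes. Srf had 2 boxes in its own promoter. Fhl2 had a second box before its other start and Myl9 had 1 as well, and Ezr and Lmna held the AP-1 motif, all not printed. A match describes letters in a window and is no evidence of binding.

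Changes are given as log2 fold changes of inhibitor over DMSO on log2(RPKM + 0.5), each with its standard error (SE) and the adjusted p of limma. Expression is given as RPKM, reads per kilobase of gene scaled to library depth. A gene was tested when its mean RPKM over the libraries of a table was at least 1. Of the 39 members, 35 were tested in each experiment, and Acta2, Myl9, Cnn1 and Tagln were below this limit in both. Acta2 (smooth muscle actin) was at 0.0850, 0.110 and 0.115 RPKM in the 3 DMSO libraries and at 0.0340, 0 and 0 RPKM with SB431542. In the T-5224 experiment Acta2 was at 0 and 0.0200 RPKM in DMSO and 0.0150 and 0.00800 RPKM with T-5224. Over both experiments Myl9, a smooth muscle myosin light chain, was at most at 0.319 RPKM, Cnn1 (calponin 1) at 0.122 RPKM and Tagln (transgelin) at 0.102 RPKM. These 4 genes, typical of smooth muscle, were near 0 in every library. Of 11 epidermal keratinocyte markers, all were at 1 RPKM or more in both experiments. Among the 8 fibroblast, 7 smooth muscle, 4 endothelial and 4 leukocyte markers, Dcn, Smtn, Pecam1 and Cd68, 1 of each list, were at 1 RPKM or more, and Col1a1, Myh11, Cdh5 and Ptprc were not.

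**Figure D1:**
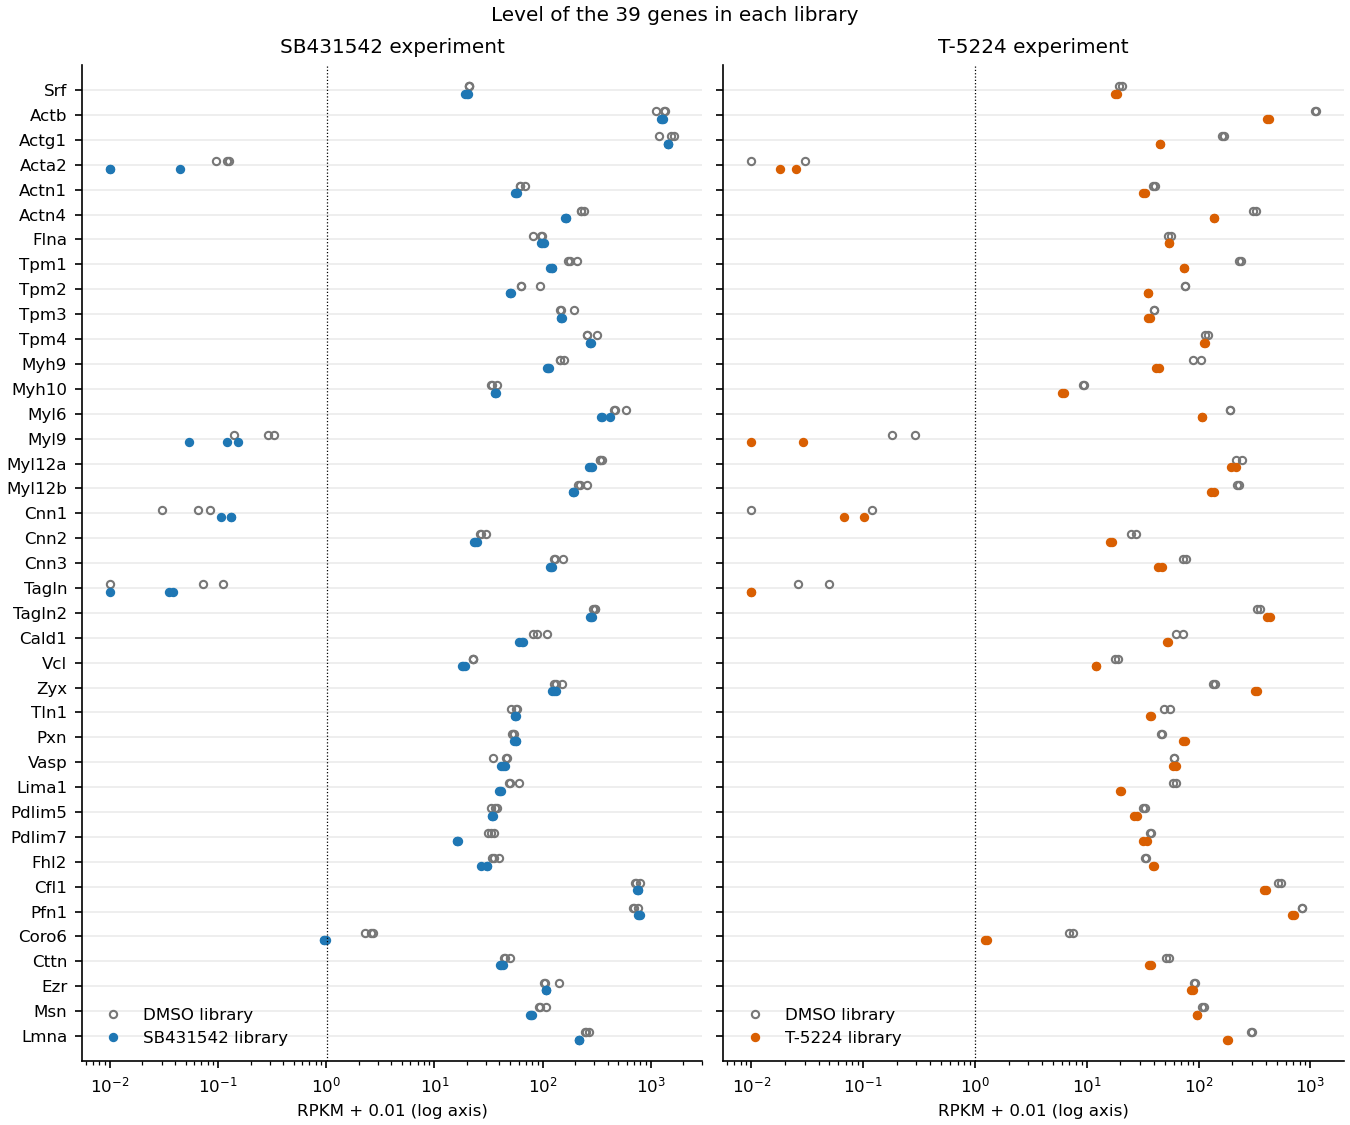
RPKM of each of the 39 genes in each library, on a log axis after adding 0.01, with open grey circles for DMSO libraries and filled circles for inhibitor libraries. The dotted line marks 1 RPKM, and Acta2, Myl9, Cnn1 and Tagln lie to its left in both experiments.

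The reads behind the libraries, worked out from the RPKM steps of short genes, ranged from 31.9 to 51.4 M. DMSO replicate 1 of the SB431542 experiment stood apart: its log2 values had an SD of 0.272 around the mean of the other DMSO libraries, against 0.123 to 0.190 for the other libraries of that experiment. The ribosomal RNA precursor Rn45s was at 770.3 RPKM in it and at 2101 and 2155 RPKM in the other DMSO libraries. Rn45s also differed between the pair treated with T-5224, at 1862 RPKM in replicate 1 and 5184 RPKM in replicate 2, with 3401 and 3473 RPKM in their DMSO libraries. Counts of calls with SB431542 are given with and without DMSO replicate 1. Without it 17.5% of all genes were lower and 19.9% were higher with SB431542 (limma). In bulk libraries, fewer cells that express a gene and less RNA per cell cannot be told apart. The p-values rest on the spread between these libraries, drawn toward a trend over all genes. The study describes the libraries as biological replicates. The summed keratinocyte markers, carried by Krt5, Krt14 and Krt17, moved with treatment too, from 11740 to 11940 RPKM in DMSO to 8273 to 8835 RPKM with SB431542, and from 16080 to 16840 RPKM to 3171 to 3301 RPKM with T-5224. Of the 11, 6 were lower and Krt15 and Epcam higher with SB431542 (log2 fold changes of 0.49 and 0.23), and 9 were lower and Epcam and Sfn higher with T-5224 (0.81 and 0.50). The summed fibroblast markers, carried by Dcn, were at 2.45 to 2.64 RPKM in DMSO and 3.70 to 4.14 RPKM with SB431542, and at 2.54 to 2.58 RPKM and 2.65 to 2.84 RPKM in the T-5224 experiment. Dcn was higher with both, at 0.68 (SE 0.0772, adjusted p = 0.00178) and 0.35 (SE 0.115, adjusted p = 0.0146). With T-5224 the summed leukocyte markers, carried by Cd68, went from 16.7 to 18.6 RPKM up to 32.7 to 33.2 RPKM. The summed endothelial markers, carried by Pecam1, were lower with both inhibitors, at 2.74 to 2.99 RPKM against 5.30 to 6.74 RPKM with SB431542 and at 4.13 to 4.67 RPKM against 10.9 to 12.0 RPKM with T-5224. The summed smooth muscle markers, carried by Smtn, were at 30.7 to 32.8 RPKM against 32.1 to 38.7 RPKM and at 17.7 to 18.7 RPKM against 25.7 to 26.6 RPKM. The part of these markers in the changes of the members was not tested.

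With SB431542, 15 of the 35 tested members fell and 0 rose at an adjusted p under 0.05 (limma, Benjamini-Hochberg over 10842 genes), where 10.0% of all genes were lower and 10.2% were higher. Their median log2 fold change was −0.17, against 0.00821 for all genes. Coro6 and Pdlim7 were lower by more than 2-fold, where 0.581% of all genes were and 0.231% were higher by as much. Without DMSO replicate 1 the counts were 19 lower and 2 higher, the latter being Pfn1 and Tpm4. At an unadjusted p under 0.05, 0 members were higher. Leaving out any 1 SB431542 library left 7 or 8 members lower. The share of all genes that were lower in those fits was not worked out, so the drop is not a result about the members. Actn4, Tpm1, Myh9, Myl12a, Vcl, Pdlim7 and Coro6 passed under every omission of 1 library, and the other 8 (Tpm2, Myl6, Myl12b, Cald1, Lima1, Fhl2, Msn and Lmna) did not.

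With T-5224, 26 of the 35 members were lower and 4 were higher (limma, over 10809 genes), where 39.4% of all genes were lower and 40.3% were higher. The share of members that were higher was below that of all genes, and the share that were lower was above it. Their median log2 fold change was −0.42, against 0.00344 for all genes. By more than 2-fold, 8 members were lower (Actb, Actg1, Actn4, Tpm1, Tpm2, Myh9, Lima1 and Coro6) and 1 was higher (Zyx), where 10.6% of all genes were lower and 10.4% were higher. When any 1 library was left out, the log2 fold changes of these members stayed beyond 2-fold. Myh9 came nearest to the limit, at −1.06. Of the 30 members that passed, 26 did so under every omission of 1 library, and Tpm3, Myl12a, Pdlim5 and Pdlim7 did not.

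**Figure D2:**
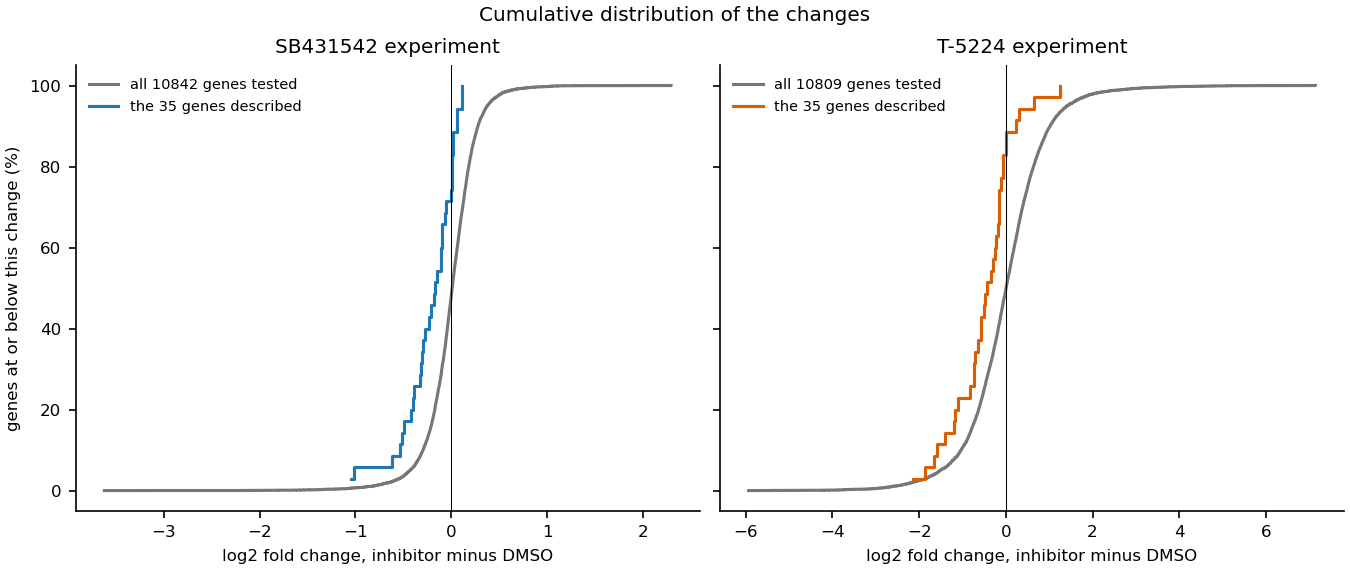
Share of genes (percent, y axis) at or below each log2 fold change (x axis), for all genes tested (grey) and the 35 members (coloured), in each experiment. The member curves lie to the left of the grey curves over most of their range, with medians of −0.17 and −0.42.

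Srf, which encodes the transcription factor itself, did not pass the test in either experiment. It was at 20.9, 21.0 and 20.9 RPKM in DMSO and 19.4, 20.6 and 20.0 RPKM with SB431542, and its log2 fold change was −0.065 (SE 0.0498, adjusted p = 0.382). With T-5224 it was at 18.7 and 17.9 RPKM against 19.3 and 20.6 RPKM in DMSO, a log2 fold change of −0.12 (SE 0.0652, adjusted p = 0.112). The inhibitor libraries lay below the DMSO libraries in both experiments. The T-5224 difference passed under quantile normalization, at −0.18 (adjusted p = 0.0179, limma), and under TPM rescaling, at −0.18 (adjusted p = 0.0212).

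The cytoplasmic actins Actb (chromosome 5, 143664794 to 143668433, mm9) and Actg1 (chromosome 11, 120207004 to 120209856) differed between the experiments in whether a change was called. Actb was at 1117, 1318 and 1366 RPKM in DMSO and 1243, 1273 and 1296 RPKM with SB431542. Actg1 was at 1199, 1540.2 and 1648 RPKM in DMSO and 1443, 1447 and 1443 RPKM with SB431542. The groups overlapped for both genes, and DMSO replicate 1 was the lowest library of each. Without DMSO replicate 1, Actg1 passed at a log2 fold change of −0.14 (adjusted p = 0.0102, limma), while with all libraries it was −0.0046. With T-5224, Actb fell from 1092 and 1113 RPKM to 409 and 429.9 RPKM, a log2 fold change of −1.39 (SE 0.0519, adjusted p = 6.20e-10). Actg1 fell from 169.7 and 162 RPKM to 45.5 and 45.05 RPKM, a log2 fold change of −1.86 (SE 0.0520, adjusted p = 6.07e-11). Both inhibitor libraries lay far below both DMSO libraries. The Actg1 share of the summed RPKM of the 2 actins was 53.4% ± 1.51 (SD, n = 3) in DMSO and 53.2% ± 0.525 with SB431542, and these overlapped. It went from 13.1% ± 0.519 (SD, n = 2) to 9.74% ± 0.362 with T-5224, without overlap.

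Actg1 carries a limit of its own. Of the 31-base windows of its longest transcript, 97.6% also occurred elsewhere in the genome, as copies such as pseudogenes do, so its reads may have been split or lost in counting. The share was 89.9% for Myl6, 71.6% for Tpm3, 58.4% for Cfl1, 41.9% for Myl12b, 41.3% for Cnn3, 39.8% for Actb and 37.2% for Tpm4, and the median member had 1.71%. The mean DMSO level of Actg1 was 1462 RPKM in the first table and 165.9 RPKM in the second. Tpm3 was at 163 and 40.0 RPKM, Myh10 at 35.1 and 9.36 RPKM, Myl6 at 503 and 189.8 RPKM and Tpm4 at 277 and 118 RPKM in the same order. These 5 of 35 members, and 9.28% of 10479 genes, were over 2-fold higher in the first table. Coro6 went the other way, at 2.51 and 7.21 RPKM. It was the 1 member over 2-fold lower in the first table, where 536 of the 10479 genes were. The tables were normalized separately, so levels are not compared further. Myh10 was among the 5 with 6.06% of its windows shared. Values of the genes with high shares are uncertain, and the part that shared sequence plays was not tested.

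The crosslinkers Actn1 and Actn4 (alpha-actinins) and Flna (filamin A) moved unequally. Actn4 (chromosome 7, 29678267 to 29747359, mm9) was at 243, 226 and 228 RPKM in DMSO and 165, 165 and 162 RPKM with SB431542, a log2 fold change of −0.50 (SE 0.0506, adjusted p = 0.00119). With T-5224, Actn4 fell from 307 and 329.8 RPKM to 139 and 138 RPKM, a log2 fold change of −1.20 (SE 0.0530, adjusted p = 2.51e-09). No inhibitor library reached the lowest DMSO library in either experiment. Actn1 had a log2 fold change of −0.17 (SE 0.0569, adjusted p = 0.0715) with SB431542, which did not pass with all libraries and did without DMSO replicate 1 (−0.12, adjusted p = 0.0199), and fell with T-5224, at −0.30 (SE 0.0573, adjusted p = 0.000488). Flna was at 56.7 and 52.9 RPKM in DMSO and 54.9 and 54.4 RPKM with T-5224, and its groups overlapped in both experiments.

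The tropomyosins split into a pair that fell with both inhibitors, Tpm1 and Tpm2, and a pair with smaller values, Tpm3 and Tpm4. Tpm1 (chromosome 9, 66870397 to 66897213, mm9) was at 207, 174 and 178 RPKM in DMSO and 121, 118 and 122 RPKM with SB431542, a log2 fold change of −0.62 (SE 0.0738, adjusted p = 0.00213). With T-5224 it went from 239 and 231 RPKM to 73.9 and 73.4 RPKM, a log2 fold change of −1.67 (SE 0.0501, adjusted p = 1.05e-10). The inhibitor libraries were all below the DMSO libraries. Tpm2 had 94.7, 63.1 and 62.7 RPKM in DMSO, with replicate 1 far above the other two, and 51.1, 49.7 and 50.5 RPKM with SB431542, a log2 fold change of −0.51 (SE 0.1496, adjusted p = 0.0499), at the edge of the threshold. Without replicate 1 the Tpm2 value was −0.32 (adjusted p = 0.000239). With T-5224, Tpm2 went from 75.8 and 76.3 RPKM to 35.6 and 35.1 RPKM, a log2 fold change of −1.09 (SE 0.0525, adjusted p = 4.96e-09). Tpm4 was at 122 and 114 RPKM in DMSO and 113 and 111 RPKM with T-5224, and its log2 fold change of −0.072 did not pass, though it did under quantile normalization (−0.12, adjusted p = 0.0249) and TPM rescaling (−0.13, adjusted p = 0.0323). With SB431542 Tpm4 was at 0.0023, and without DMSO replicate 1 it passed as higher, at 0.10 (adjusted p = 0.0182, limma). Tpm3 passed with T-5224 at −0.15 (SE 0.0550, adjusted p = 0.0278) and not with SB431542.

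The make-up of the tropomyosin transcripts shifted in the same direction in both experiments. Tpm1 was 26.7% ± 1.16 (SD, n = 3) of the summed RPKM of the 4 genes in DMSO and 20.2% ± 0.160 with SB431542, and 50.1% ± 0.00134 (SD, n = 2) in DMSO and 28.6% ± 0.187 with T-5224. Tpm4 was 39.6% ± 0.621 in DMSO and 46.3% ± 0.201 with SB431542, and 25.2% ± 0.634 in DMSO and 43.6% ± 0.0919 with T-5224. No library of 1 group reached the range of the other for either share. A share rises when the others fall, so these values are 1 result and not several.

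**Figure D3:**
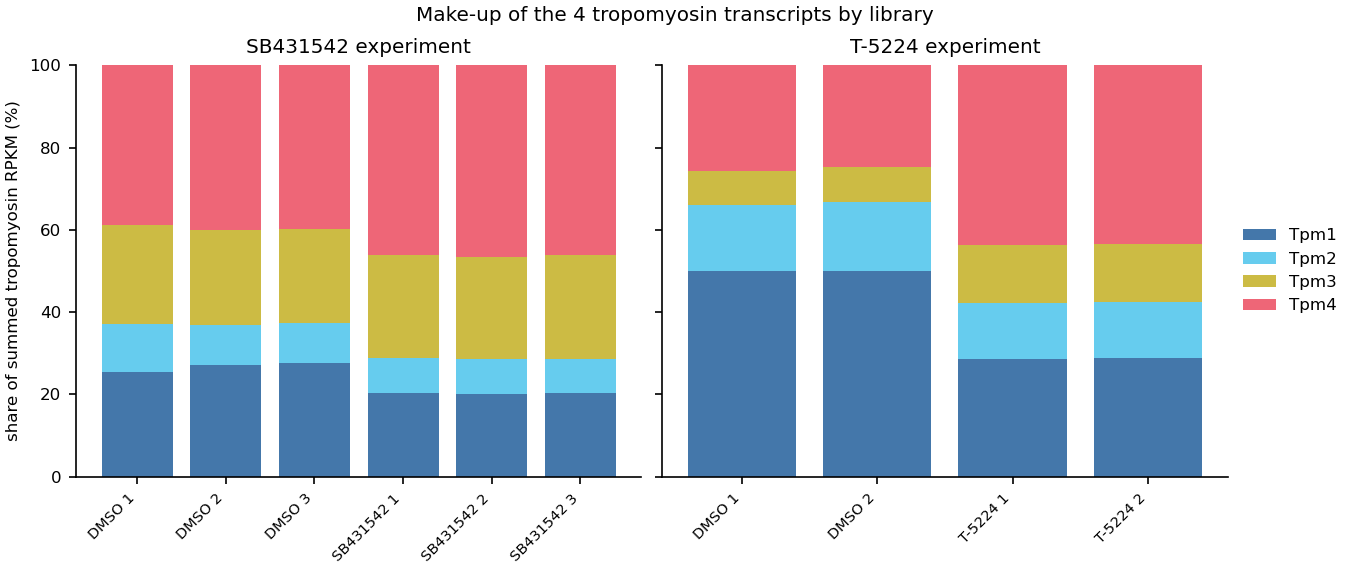
Share (percent) of Tpm1, Tpm2, Tpm3 and Tpm4 in their summed RPKM for each library, with DMSO libraries to the left of the inhibitor libraries in each panel. The Tpm1 share was lower in every inhibitor library and the Tpm4 share higher.

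Nonmuscle myosin II consists of heavy chains (Myh9 and Myh10), essential light chains (Myl6) and regulatory light chains (Myl9, Myl12a and Myl12b). Of the 5 tested, 4 fell with SB431542 and 5 with T-5224, where 10.0% and 39.4% of all genes were lower. The 4 also passed without DMSO replicate 1, where 17.5% of all genes were lower. Of these 4, Myl6 and Myl12b did not pass when any 1 SB431542 library was left out. Myh9 (chromosome 15, 77591017 to 77672605, mm9) was at 159, 145 and 146 RPKM in DMSO and 111, 113 and 116 RPKM with SB431542, a log2 fold change of −0.40 (SE 0.0550, adjusted p = 0.00369). With T-5224, Myh9 fell from 89.8 and 104 RPKM to 41.3 and 44.5 RPKM, a log2 fold change of −1.16 (SE 0.0724, adjusted p = 4.35e-08). Inhibitor libraries lay below the DMSO libraries throughout. Myh10, the other heavy chain, overlapped with SB431542 at 0.058 (SE 0.0625, adjusted p = 0.540) and fell with T-5224 at −0.58 (SE 0.0768, adjusted p = 2.79e-05). The Myh9 share of the 2 heavy chains went from 81.1% ± 0.331 (SD, n = 3) to 75.6% ± 0.212 with SB431542 and from 91.2% ± 0.762 (SD, n = 2) to 87.5% ± 0.921 with T-5224, without overlap.

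Among the light chains, Myl6 was at 590.1, 453 and 466 RPKM in DMSO and 345, 419 and 358 RPKM with SB431542, and at 189.8 and 189.8 RPKM and 108 and 107 RPKM in the T-5224 experiment. Its log2 fold changes were −0.42 (SE 0.118, adjusted p = 0.0434) and −0.82 (SE 0.0489, adjusted p = 2.98e-08). Leaving out any 1 SB431542 library gave Myl6 an adjusted p of 0.0632 to 0.151 (limma). Myl12a fell with SB431542, at −0.31 (SE 0.0501, adjusted p = 0.00690), and with T-5224, at −0.17 (SE 0.0698, adjusted p = 0.0458). Myl12b fell with both as well, at −0.27 (SE 0.0739, adjusted p = 0.0401) and −0.74 (SE 0.0550, adjusted p = 1.88e-07). The same omissions gave Myl12b an adjusted p of 0.118 to 0.137 with SB431542 (limma). The Myl12b share of the 2 regulatory chains overlapped between groups with SB431542 (40.2% ± 1.76 and 40.8% ± 0.869, SD, n = 3) and went from 49.3% ± 1.33 to 39.4% ± 0.630 (SD, n = 2) with T-5224.

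The calponins, transgelins and caldesmon regulate or decorate the filaments. Caldesmon (Cald1) was at 109, 89.6 and 82.3 RPKM in DMSO and 64.7, 61.2 and 66.2 RPKM with SB431542, and fell with a log2 fold change of −0.54 (SE 0.101, adjusted p = 0.0122). With T-5224 Cald1 went from 72.6 and 62.7 RPKM to 52.7 and 53.8 RPKM, a log2 fold change of −0.34 (SE 0.0688, adjusted p = 0.000789). No inhibitor library reached the DMSO range. Cnn2 did not pass with SB431542 (log2 fold change −0.21, SE 0.0637, adjusted p = 0.0573) and neither did Cnn3 (log2 fold change −0.19, SE 0.0774, adjusted p = 0.130), while both fell with T-5224, at −0.65 (SE 0.0678, adjusted p = 3.55e-06) and −0.73 (SE 0.0603, adjusted p = 4.70e-07). Both passed with SB431542 without DMSO replicate 1, Cnn2 at −0.16 (adjusted p = 0.0262) and Cnn3 at −0.10 (adjusted p = 0.0402), and Cnn2 also passed under quantile normalization (adjusted p = 0.0447) and TPM rescaling (adjusted p = 0.0407, limma). Tagln2 (transgelin 2) was at 308, 292 and 305 RPKM in DMSO and 284, 283 and 272 RPKM with SB431542, which did not pass (log2 fold change −0.11, SE 0.0500, adjusted p = 0.164). With T-5224 Tagln2 rose from 351 and 337 RPKM to 434 and 410.4 RPKM, a log2 fold change of 0.30 (SE 0.0531, adjusted p = 0.000313).

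Of the focal adhesion proteins, Vcl (vinculin, chromosome 14, 21748655 to 21852895, mm9) was at 22.7, 23.0 and 23.0 RPKM in DMSO and 19.0, 18.6 and 18.0 RPKM with SB431542, a log2 fold change of −0.30 (SE 0.0490, adjusted p = 0.00729). It fell with T-5224 from 19.0 and 17.8 RPKM to 12.2 and 12.1 RPKM, a log2 fold change of −0.58 (SE 0.0669, adjusted p = 8.44e-06). The groups did not overlap in either experiment. Tln1 (talin 1) overlapped between groups with SB431542 (log2 fold change 0.011, SE 0.0586, adjusted p = 0.914) and fell with T-5224 (log2 fold change −0.49, SE 0.0650, adjusted p = 2.83e-05). Vasp, which promotes filament elongation, passed in neither experiment, though under quantile normalization its T-5224 value was −0.10 (adjusted p = 0.0340, limma).

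Zyx and Pxn, both LIM-domain adaptors of adhesions, had the largest rises among the members with T-5224. Zyx (zyxin, chromosome 6, 42299827 to 42310145, mm9), whose promoter window holds the AP-1 motif shown earlier, was at 134 and 141 RPKM in DMSO and 331 and 319 RPKM with T-5224. Both T-5224 libraries were far above both DMSO libraries, and the log2 fold change was 1.24 (SE 0.0518, adjusted p = 1.63e-09). With SB431542 Zyx was at 124, 132 and 128 RPKM against 151, 134 and 127 RPKM, with overlap and a log2 fold change of −0.10 (SE 0.0729, adjusted p = 0.362). Pxn (paxillin) rose with T-5224 from 46.5 and 47.2 RPKM to 75.2 and 73.0 RPKM, a log2 fold change of 0.66 (SE 0.0526, adjusted p = 3.80e-07), and with SB431542 it was 0.059 (SE 0.0492, adjusted p = 0.422).

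**Figure D4:**
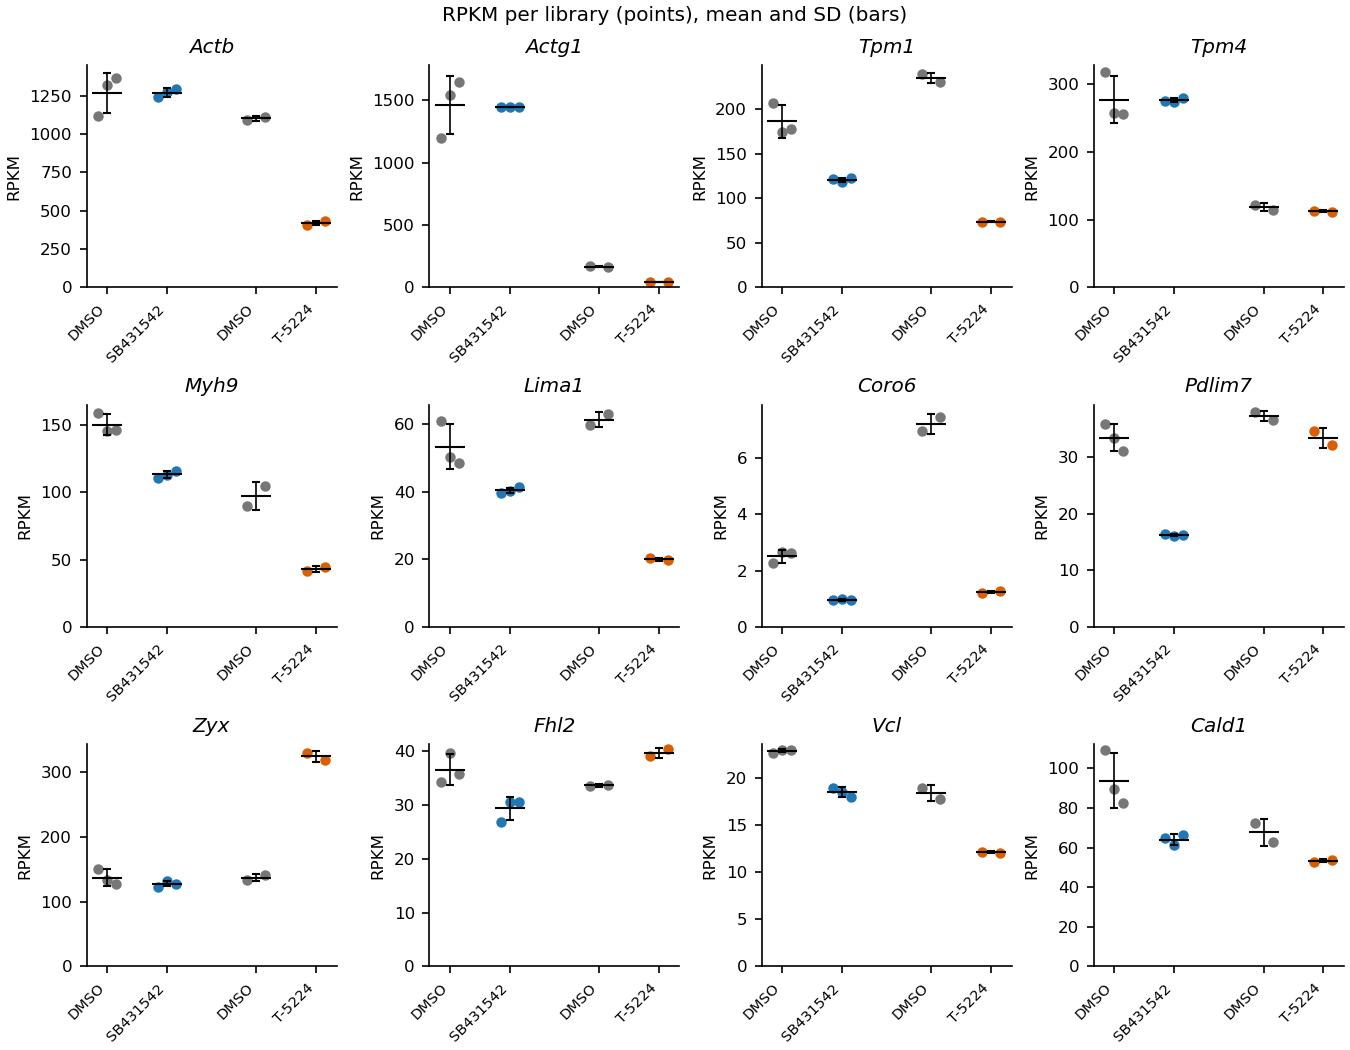
RPKM of 12 genes in each library (points) with the mean and SD (bars), DMSO in grey and inhibitor libraries coloured, each axis starting at 0. Zyx rose with T-5224, Fhl2 went in opposite directions, and Tpm1, Myh9, Lima1 and Coro6 fell in both experiments.

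The LIM-domain proteins Lima1, Pdlim5, Pdlim7 and Fhl2 bind actin or its partners. Lima1 (chromosome 15, 99608901 to 99705859, mm9), a crosslinker, was at 60.9, 50.4 and 48.6 RPKM in DMSO and 39.6, 40.2 and 41.3 RPKM with SB431542, a log2 fold change of −0.39 (SE 0.0864, adjusted p = 0.0211). With T-5224, Lima1 fell from 59.6 and 62.8 RPKM to 20.2 and 19.6 RPKM, a log2 fold change of −1.59 (SE 0.0579, adjusted p = 4.97e-10). Both falls were free of overlap. Pdlim7 (chromosome 13, 55597156 to 55615037, mm9) fell from 35.9, 33.3 and 31.1 RPKM to 16.4, 16.1 and 16.3 RPKM with SB431542, a log2 fold change of −1.02 (SE 0.0631, adjusted p = 0.000146). With T-5224, Pdlim7 fell from 37.9 and 36.7 RPKM to 34.6 and 32.1 RPKM, a log2 fold change of −0.16 (SE 0.0602, adjusted p = 0.0303). Without DMSO replicate 1 the Pdlim7 value with SB431542 was −0.96, just inside 2-fold. Fhl2 was at 34.2, 39.7 and 35.8 RPKM in DMSO and 26.9, 30.6 and 30.5 RPKM with SB431542, a log2 fold change of −0.31 (SE 0.0777, adjusted p = 0.0304), and at 33.5 and 33.8 RPKM and 39.05 and 40.3 RPKM in the T-5224 experiment, a log2 fold change of 0.24 (SE 0.0556, adjusted p = 0.00216). Pdlim5 passed with T-5224 (log2 fold change −0.24, SE 0.0621, adjusted p = 0.00432) and not with SB431542 (log2 fold change −0.054, SE 0.0604, adjusted p = 0.555).

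Filament turnover and branching genes were led by Coro6 (coronin 6, chromosome 11, 77275913 to 77283986, mm9). With 0.5 added before the logarithm it had the largest change of the members in both experiments. It was at 2.25, 2.67 and 2.61 RPKM in DMSO and 0.939, 0.981 and 0.951 RPKM with SB431542, a log2 fold change of −1.04 (SE 0.0898, adjusted p = 0.000562). With T-5224 it fell from 6.96 and 7.45 RPKM to 1.21 and 1.26 RPKM, a log2 fold change of −2.15 (SE 0.0987, adjusted p = 3.40e-09). Values this low are understated by the added 0.5: the SB431542 value was −1.30 with 0.1 in its place and −0.84 with 1. Cfl1 (cofilin 1, which severs filaments) did not pass with SB431542 (log2 fold change 0.017, SE 0.0563, adjusted p = 0.851) and fell with T-5224 (log2 fold change −0.42, SE 0.0532, adjusted p = 1.75e-05). Pfn1 (profilin 1, which feeds monomers to growing ends) was at 757, 691 and 706 RPKM in DMSO and 762, 788 and 780.3 RPKM with SB431542 (log2 fold change 0.11, SE 0.0568, adjusted p = 0.193), and fell with T-5224 (log2 fold change −0.26, SE 0.0508, adjusted p = 0.000591). Leaving out DMSO replicate 1 gave Pfn1 an SB431542 value of 0.15 that passed (adjusted p = 0.00390, limma). Cttn (cortactin) fell with T-5224 (log2 fold change −0.51, SE 0.0575, adjusted p = 7.03e-06) and did not pass with SB431542 (log2 fold change −0.15, SE 0.0605, adjusted p = 0.113).

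Ezr and Msn link actin to the membrane, and Lmna encodes the A-type lamins of the nucleus. Msn fell with both, at −0.33 (SE 0.0682, adjusted p = 0.0172) with SB431542 and −0.18 (SE 0.0501, adjusted p = 0.00691) with T-5224. Lmna was at 295 and 301 RPKM in DMSO and 183 and 181 RPKM with T-5224, a log2 fold change of −0.71 (SE 0.0488, adjusted p = 9.83e-08), and it fell with SB431542, at −0.23 (SE 0.0536, adjusted p = 0.0244). Ezr passed in neither experiment, at −0.093 and −0.075. The T-5224 value of Ezr was −0.17 under quantile normalization (adjusted p = 0.00440, limma) and −0.13 under TPM rescaling (adjusted p = 0.0182), where it passed.

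Set side by side, 14 of the 35 members were lower with both inhibitors: Actn4, Tpm1, Tpm2, Myh9, Myl6, Myl12a, Myl12b, Cald1, Vcl, Lima1, Pdlim7, Coro6, Msn and Lmna. Of the 10462 genes tested in both experiments, 7.63% were lower with both. Of the 14, Actn4, Tpm1, Myh9, Vcl and Coro6 passed in both experiments under every omission of 1 library. When DMSO replicate 1 was left out, 18 members were lower with both, the others being Actg1, Actn1, Cnn2 and Cnn3, where 12.4% of all genes were. With all libraries, a further 12 members (34.3%) passed as lower with T-5224 only, near the 30.1% of all genes. Tagln2, Zyx and Pxn passed as higher with T-5224 only, where 31.5% of all genes did. Fhl2 passed as lower with SB431542 and higher with T-5224, where 1.47% of all genes did. Srf, Flna, Tpm4, Vasp and Ezr passed in neither, where 18.1% of all genes passed in neither. All of these members but Flna passed with T-5224 under quantile normalization. The share of all genes that did so was not worked out, and without that normalization 39.4% were lower and 40.3% higher with T-5224. In the fit without DMSO replicate 1 and without that normalization, 7 members passed as lower with T-5224 only, where 23.4% of all genes did. There Pfn1 passed as higher with SB431542 and lower with T-5224 (3.66% of all genes), and Tpm4 as higher with SB431542 only (2.96%). The size of the log2 fold change was larger with SB431542 for 8 members. The inhibitors were not tested against each other, their doses differ and their DMSO libraries are separate, so passing in 1 experiment alone does not show a difference. All 39 members together made up 2.10% ± 0.0250 (SD, n = 3) of the summed RPKM in DMSO and 1.91% ± 0.0297 with SB431542, and 1.70% ± 0.00260 (SD, n = 2) and 1.16% ± 0.00104 in the T-5224 experiment.

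**Figure D5:**
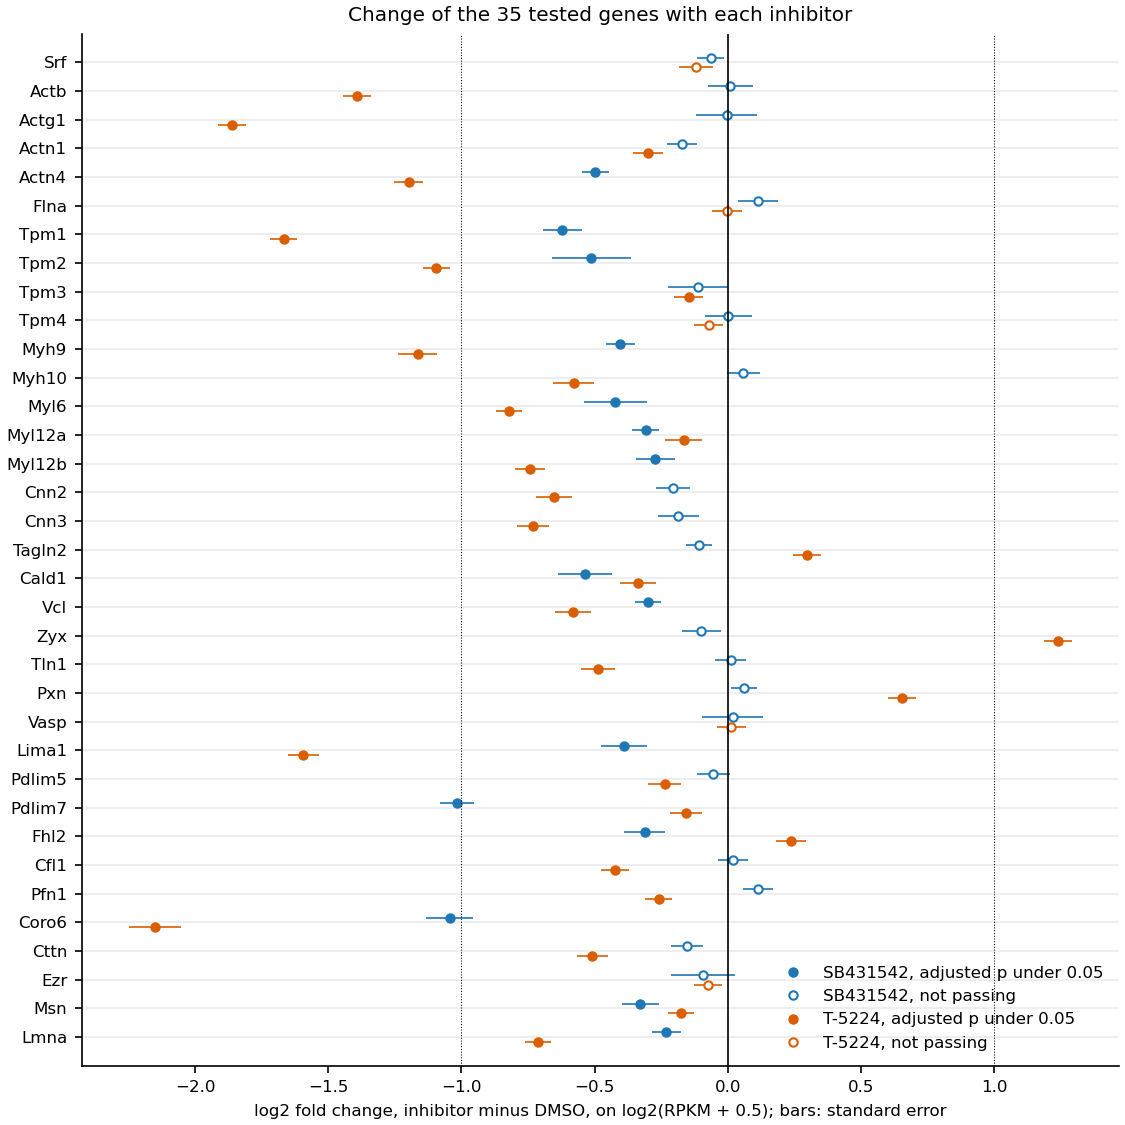
Log2 fold change of each of the 35 tested members with SB431542 (blue) and T-5224 (orange), with standard errors as bars, filled where the adjusted p was under 0.05, and dotted lines at 2-fold. Zyx rose with T-5224 and Coro6 lay at or beyond 2-fold lower in both.

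The members with a CArG box were described beside those without. The 7 tested members that have one had, with SB431542, a median of −0.30 on the log2 scale, 4 of them lower, and the 25 without had −0.17, 11 of them lower. When DMSO replicate 1 was left out, 6 of the 7 and 13 of the 25 were lower and 0 and 2 were higher. With T-5224 the 7 had −0.65, 5 lower and 1 higher, and the 25 had −0.30, 19 lower and 2 higher. The 5 members with an AP-1 motif had −0.17 with T-5224, 3 lower and 1 higher, and the 27 without had −0.49, 21 lower and 2 higher. With SB431542 the order was the other way, at −0.23 for the 5, 3 lower, and −0.19 for the 27, 12 lower. When DMSO replicate 1 was left out, 3 of the 5 and 16 of the 27 were lower with SB431542, and 0 and 2 were higher. Of all genes, 10.0% were lower and 10.2% higher with SB431542, and 39.4% and 40.3% with T-5224. Without DMSO replicate 1 the SB431542 shares of all genes were 17.5% and 19.9%. The counts of members with and without a motif are over few genes, and no test was made of them.

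Genes upstream of and beside the members were also chosen with earlier results known. Rock1 and Rock2, the kinases that activate myosin II, did not pass with SB431542, except Rock2 as higher without DMSO replicate 1, and both were higher with T-5224 by limma, with log2 fold changes of 0.27 (SE 0.0739, adjusted p = 0.00605) and 0.46 (SE 0.0733, adjusted p = 0.000116). Mkl1 and Mkl2, which encode the MRTF coactivators, had log2 fold changes of −0.25 (SE 0.0514, adjusted p = 0.0159) and −0.14 (SE 0.0800, adjusted p = 0.234) with SB431542, where Mkl2 did not pass, and of −0.15 (SE 0.0612, adjusted p = 0.0357) and −0.86 (SE 0.0795, adjusted p = 1.28e-06) with T-5224.

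In the list of the Arp2/3 complex, which branches filaments, and its activators, 0 of 17 were lower and 2 higher with SB431542 (Arpc1b, 0.52, and Abi2, 0.25), with 9 lower and 4 higher with T-5224. As above, 10.0% and 10.2% of all genes were lower and higher with SB431542 and 39.4% and 40.3% with T-5224. The SB431542 counts were 2 lower and 4 higher without DMSO replicate 1. At an unadjusted p under 0.05, 2 of the 17 were lower with SB431542 (limma). Arpc1a fell with T-5224 from 109.8 and 111 RPKM to 40.2 and 36.5 RPKM and Arpc5l rose from 40.1 and 36.4 RPKM to 94.4 and 90.0 RPKM. Other focal adhesion genes had 7 of 19 lower and 1 higher with SB431542, and 12 of 20 lower and 7 higher with T-5224. Without DMSO replicate 1 the SB431542 counts were 9 and 2. Nedd9 fell with SB431542 (log2 fold change −0.99, SE 0.0985, adjusted p = 0.00111) and with T-5224 (−0.46, adjusted p = 4.04e-05, limma). Tns4 also fell with both (−0.53 and −1.73), as did Tln2 (−0.36 and −2.15). Ptk2, which encodes focal adhesion kinase, rose with both (0.22, adjusted p = 0.0257, and 0.74, adjusted p = 5.68e-07, limma). Of the other filament turnover genes, 0 of 21 were lower and 1 higher with SB431542 (Coro2a, 0.39, with 2 lower at an unadjusted p under 0.05, limma, and 3 lower and 2 higher without DMSO replicate 1), and 16 of 20 were lower and 1 higher with T-5224, led by Gsn, the filament-severing gelsolin, which went from 225 and 232 RPKM to 40.9 and 38.9 RPKM.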

How the data were processed

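RNA-seq was read from 2 tables, each with the RPKM of every gene in each library of 1 experiment. The authors aligned reads from stranded TruSeq libraries with TopHat to mm9 and deposited RPKM (reads per kilobase of gene, scaled to depth) made with HOMER. The gene annotation and the strand setting used in counting are not given in the sources used here, so overlapping and antisense genes may share reads. The authors' own test used DESeq2 on counts, which were not analysed here. Groups came from the treatment labels. The DMSO columns of the T-5224 table are numbered 1 and 2 and the labels number those libraries 4 and 5, so these columns were matched to the group only. All 10 columns of values were used. Date-like gene names, on 22 and 23 rows, were dropped.

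Values were put on the log2(RPKM + 0.5) scale and tested in R 4.3.3 with limma 3.58.1, moderated by empirical Bayes with a mean-variance trend. It covered every gene whose RPKM averaged 1 or more in its table, and p-values were adjusted over all of them by Benjamini-Hochberg. The contrast was inhibitor against DMSO within a table. A fold change on this scale understates that of low genes. The code was tested on simulated data. Reads per library were derived from low RPKM (under 6 reads) of genes under 250 bases, taking values within 0.05 of a whole read as whole. Standard errors come from the moderated variance, which draws the spread of a gene between its libraries toward the trend over all genes. Positions of genes are on mm9 (GENCODE M1), where Myl12a is listed under an older symbol. Promoters are from RefSeq (GRCm38.p6). Shared sequence is the share of 31-base windows of the longest annotated transcript found in the genome outside the gene.

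The members, lists and tests were chosen with earlier results of these data known. All members were named, and from each pathway list at most 3 falls and 3 rises that passed, with the ROCK kinases and the MRTF genes. The counts of 1 list and some of its genes are not reported here. Alternatives were pseudocounts of 0.1 and 1, no filter or a mean of at least 5 RPKM, median centring, quantile normalization, TPM rescaling, no mean-variance trend, an unadjusted p, a 1.5-fold limit, the replicate number as a block and each library left out in turn.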

Additional observations from a re-analysis of the deposited data

Results flagged for a closer look

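For 3 members, every inhibitor library lay on one side of DMSO in the SB431542 experiment and on the opposite side in the T-5224 experiment. The same held for 10.5% of the 10462 genes tested in both. The difference between the experiments was not tested, since their tables were normalized separately. On the log2 scale Fhl2 changed by −0.31 with SB431542 and 0.24 with T-5224, and passed the limma test in both. Its SB431542 value did not pass when any 1 SB431542 library was left out (adjusted p of 0.0784 to 0.109, limma). Nor did it pass without DMSO replicate 2 or DMSO replicate 3. Tagln2 had −0.11 with SB431542, which did not pass, and 0.30 with T-5224. Under quantile normalization the SB431542 value of Tagln2 was −0.21 (adjusted p = 0.0301, limma). Pfn1 had 0.11 with SB431542, which did not pass with all libraries, and −0.26 with T-5224.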

How the results depend on the processing

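The count of members lower with SB431542 lay between 7 and 19 when each library was left out in turn, from 15, and the count lower by more than 2-fold between 1 and 2. That count was 0 with a pseudocount of 1 and 1 with a mean of at least 5 RPKM, where Coro6 was not tested. The count of members higher with SB431542 lay between 0 and 2 over the same omissions. Apart from the fit without DMSO replicate 1, the shares of all genes called in the alternative fits were not worked out. The median log2 fold change with SB431542 lay between −0.20 and −0.12 over the omissions and was −0.21 under both quantile normalization and TPM rescaling. With T-5224, a limit of 1.5-fold gave 13 members lower and 2 higher. The share of all genes at this limit was not worked out, and their quartiles were −0.501 and 0.502 on the log2 scale. The median of the members with T-5224 was −0.34 with no filter and −0.38 at 5 RPKM. It was −0.52 under quantile normalization, −0.48 under TPM rescaling, and between −0.47 and −0.40 over the omissions. The cause was not tested. Whether the replicate numbers of the SB431542 experiment mark pairs is not known. Deviations of same-numbered libraries had correlations of −0.148, 0.151 and −0.0949. Those of differently numbered libraries lay between −0.171 and 0.196, so these values cannot decide it. With the replicate block 12 members were lower, and libraries did not all correlate best with their own number. Omitting 1 of 2 libraries in the T-5224 experiment assumes that the lone library varies like the others.

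Members that did not pass changed sign. Under quantile normalization and TPM rescaling the SB431542 values were −0.011 and −0.023 for Tln1, −0.075 and −0.031 for Tpm4, −0.084 and −0.024 for Actb, −0.071 and −0.016 for Cfl1 and −0.0077 and −0.016 for Vasp, and the T-5224 values of Vasp were −0.10 (adjusted p = 0.0340, limma) and −0.041. Over the omissions, the SB431542 values lay between −0.042 and 0.040 for Tln1, −0.050 and 0.10 for Tpm4, −0.078 and 0.067 for Actb, −0.17 and 0.057 for Ezr, −0.0063 and 0.058 for Cfl1, −0.19 and 0.027 for Tpm3, −0.14 and 0.088 for Actg1 and −0.12 and 0.093 for Vasp. The T-5224 values lay between −0.052 and 0.046 for Flna and −0.032 and 0.058 for Vasp. Counts were not analysed here, so no count test was run.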
